A study of Mus musculus with 4 samples.

Results

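The mus and the cas copy of chromosome X were compared within Sirt7 knockout (Sirt7-/-) cells. The cells were female mouse tail tip fibroblasts (TTF), skin-derived connective tissue cells, from mus/cas hybrids, in which sequence differences allow Hi-C reads to be assigned to one parental chromosome or the other. Hi-C joins fragments of DNA that are neighbours in the nucleus and reads both ends of each junction. The series holds 4 samples, of which the 2 knockout (KO) replicates were used, and 4 of its 8 deposited matrices, 1 for each allele and bin size. The wild-type matrices were not used here. Every value below therefore comes from Sirt7-/- cells, and nothing in it shows an effect of SIRT7 loss.

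The members are the bins of chromosome X that hold data on both alleles. At 250 kb these were 589 of 683 bins, with 90 bins empty on mus and 92 on cas, of which 88 were shared. At 100 kb they were 1463 of 1707 bins. The largest gaps were 27 bins from 24.25 to 31 Mb, 21 bins at the start of the chromosome and 17 bins from 31.25 to 35.5 Mb. Each deposited value is the correlation between the contacts of 1 bin and those of another, so that a pair with like partners along the chromosome has a high value. The authors combined the 2 replicates before making the matrices. No replicate error exists for any value below, no test between the alleles was made, and ranges are spreads over bins. The depth is unknown. Adjacent bins, whose likeness noise lowers, had a mean correlation of 0.131 on mus and 0.184 on cas at 250 kb, and 0.0401 and 0.0716 at 100 kb. Only chromosome X is covered and contacts carry no expression, so the loss of Sirt7 and the fibroblast identity of the cells could not be checked here.

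SIRT7 belongs to the sirtuins, enzymes that use NAD to remove acyl groups from proteins, and acts mainly in the nucleus. In female mammals one X chromosome is coated by the noncoding RNA Xist and silenced. The active X is known to alternate between A compartments, which are gene-rich and contact each other, and gene-poor B compartments, whereas the inactive X largely lacks this plaid pattern and folds into a pair of megadomains that meet at the macrosatellite Dxz4. Some genes escape silencing and are transcribed from both copies. Which copy was inactive is not stated in the labels.

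Promoters are shown for 4 genes whose bins carry the results below. The transcript 4933407K13Rik hosts Dxz4, where the mus chromosome divides. Kdm5c, a histone H3 lysine 4 demethylase gene known to escape inactivation, lies in the bin with the highest compartment score on mus. Dock11, a guanine nucleotide exchange factor gene, lies in the bin whose mus and cas profiles were most alike, and Il13ra2, the gene of a decoy receptor for interleukin 13, lies in a bin whose profiles ran opposite ways. The sequences are the 250 bases before the annotated start (RefSeq, GRCm38.p6), 5′ to 3′ on the strand of the gene, with CpG dinucleotides in capitals. They lie on chromosome X at 75764700 to 75764949 (minus strand), 152232977 to 152233226 (plus), 35888582 to 35888831 (plus) and 147429193 to 147429442 (minus), in the order printed.
4933407K13Rik: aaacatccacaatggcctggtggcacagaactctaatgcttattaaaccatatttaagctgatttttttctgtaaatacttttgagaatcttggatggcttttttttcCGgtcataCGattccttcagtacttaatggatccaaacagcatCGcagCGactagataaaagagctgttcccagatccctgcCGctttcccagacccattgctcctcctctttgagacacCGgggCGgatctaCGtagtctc
Kdm5c: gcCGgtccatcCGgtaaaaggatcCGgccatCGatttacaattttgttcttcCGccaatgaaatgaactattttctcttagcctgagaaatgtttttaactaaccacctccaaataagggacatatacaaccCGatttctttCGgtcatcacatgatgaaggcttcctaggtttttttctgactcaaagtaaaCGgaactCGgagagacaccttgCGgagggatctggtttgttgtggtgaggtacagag
Dock11: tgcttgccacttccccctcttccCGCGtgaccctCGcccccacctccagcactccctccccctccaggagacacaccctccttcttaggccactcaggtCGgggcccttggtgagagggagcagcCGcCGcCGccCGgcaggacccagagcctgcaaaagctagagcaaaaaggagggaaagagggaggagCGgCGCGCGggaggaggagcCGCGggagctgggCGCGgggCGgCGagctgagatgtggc
Il13ra2: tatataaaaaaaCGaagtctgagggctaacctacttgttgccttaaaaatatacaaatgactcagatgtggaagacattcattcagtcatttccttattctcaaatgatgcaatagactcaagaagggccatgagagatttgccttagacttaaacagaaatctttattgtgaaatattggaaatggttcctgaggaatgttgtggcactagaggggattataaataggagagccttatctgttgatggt
The promoter of Dock11 held 18 CpGs, that of Kdm5c 10, that of 4933407K13Rik 8 and that of Il13ra2 1. Among 1223 promoter entries of chromosome X the median was 5, and 11.6% held at least as many as Dock11, 30.8% as Kdm5c, 37.0% as 4933407K13Rik and 89.0% as Il13ra2. Genes are placed below by their midpoints. The annotated starts of Kdm5c and 4933407K13Rik fall in the 250 kb bin before and after, respectively, the one that holds the midpoint.

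The first question was how strongly each chromosome divides into compartments without SIRT7. The cas chromosome was ordered by compartments and the mus chromosome hardly at all. Classes A and B were the 118 highest and the 118 lowest bins on the leading component of the cas matrix, with 336 protein-coding genes in A and 55 in B. The A/B contrast, the mean correlation of pairs within a class minus that of pairs between classes at least 2 Mb apart, was 0.319 on cas and 0.0132 on mus, which is 4.14% of the cas value, or 2.38% with the effect of distance removed as described below. On cas, A pairs had a mean of 0.122, B pairs 0.251 and mixed pairs -0.134. On mus the same pairs had 0.0351, 0.0399 and 0.0242, so all 3 kinds were weakly positive. Because the classes come from cas, the cas value is a reference level and not a finding.

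Bins of 1 class tend to lie near each other, and near bins are correlated on both chromosomes, so part of a small contrast can be distance. After the mean at each distance was subtracted from each matrix, hereafter removal of the distance trend, the contrast was 0.314 on cas and 0.00746 on mus. At 100 kb it was 0.0866 on cas and 0.00147 on mus, or 1.70%, and 0.435% after removal of the trend. The weak contrast on mus was therefore close to 0 in the smaller bins.

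Classes that use neither matrix gave a larger share. The 118 bins with most protein-coding genes (534 genes) were set against the 118 with fewest, which held none. The contrast between gene-rich and gene-poor bins was 0.108 on cas and 0.0108 on mus, a share of 10.0%. It was 10.2% after removal of the distance trend and 7.81% at 100 kb. On mus, pairs of gene-poor bins had a mean correlation of 0.0421, pairs of gene-rich bins 0.0354 and mixed pairs 0.0279. On cas these were 0.141, 0.0265 and -0.0243. The gene-poor bins thus had the highest mean among themselves on both copies.

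The plot of the trend-removed matrices shows this difference in kind. Cas is a plaid of alternating stripes that runs through the position of Dxz4, whereas on mus the left and right parts meet in corners at Dxz4.

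**Figure D1:**
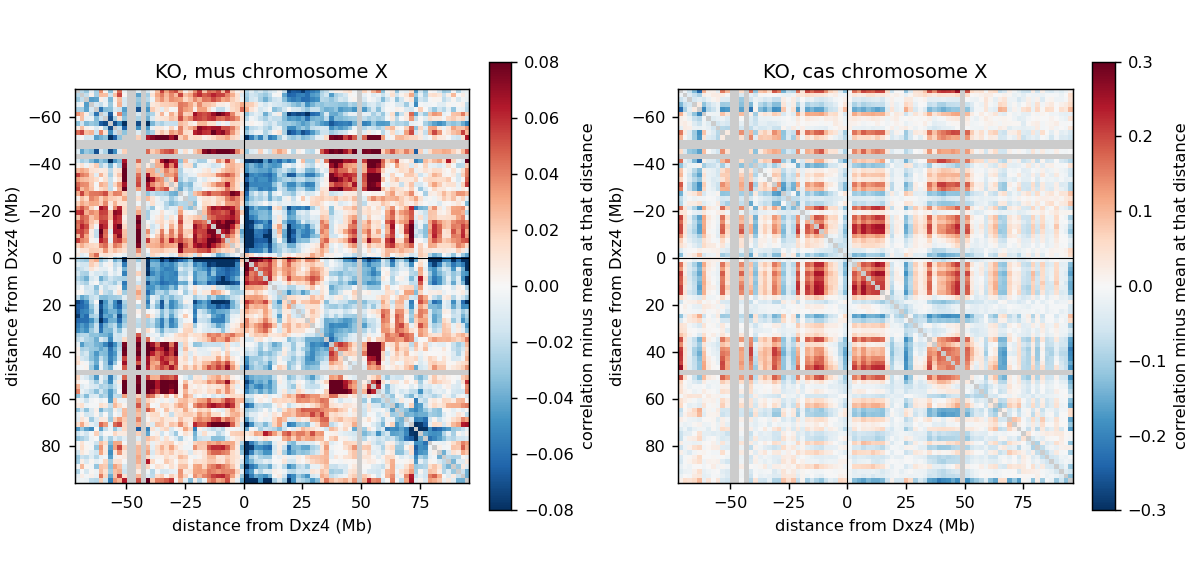
Correlation minus the mean at the same distance in KO, averaged over squares of 2 Mb, for mus (left, colour range -0.08 to 0.08) and cas (right, colour range -0.3 to 0.3), against distance from Dxz4 in Mb. Grey marks squares without data or on the diagonal, and black lines mark Dxz4. Pairs on the same side of Dxz4 exceed pairs across it on mus (0.0216 against 0.00525) and not on cas (0.0231 against 0.0512).

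The leading pattern of each matrix was also found without classes. On cas the first principal component took 9.196% of the matrix trace and the second 2.22%. On mus the first took 3.38%, the second 2.52%, the third 1.23% and the fourth 1.16%. The pattern most like the first cas component was the fourth on mus, with a Pearson correlation of 0.621 over the 589 bins, whereas the first 3 mus components had 0.123, 0.0380 and 0.0319. The first mus component correlated with the side of Dxz4 at 0.518 in size. The fourth mus component correlated with gene number at 0.383, against 0.457 for the first cas component. At 100 kb the closest was the third mus component, at 0.422, and it took 0.368% of the trace. Each of these was the closest of 10 components, and each also followed the side of Dxz4. In size, the fourth mus component at 250 kb correlated with side at 0.347 and with position along the chromosome at 0.198. The third at 100 kb correlated with side at 0.4001 and with position at 0.394, near its 0.422 with cas. A pattern partly like the cas compartment axis was therefore present on mus at both bin sizes, behind larger patterns and mixed with side. Bins share partners and neighbours, so these correlations are descriptions.

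**Figure D2:**
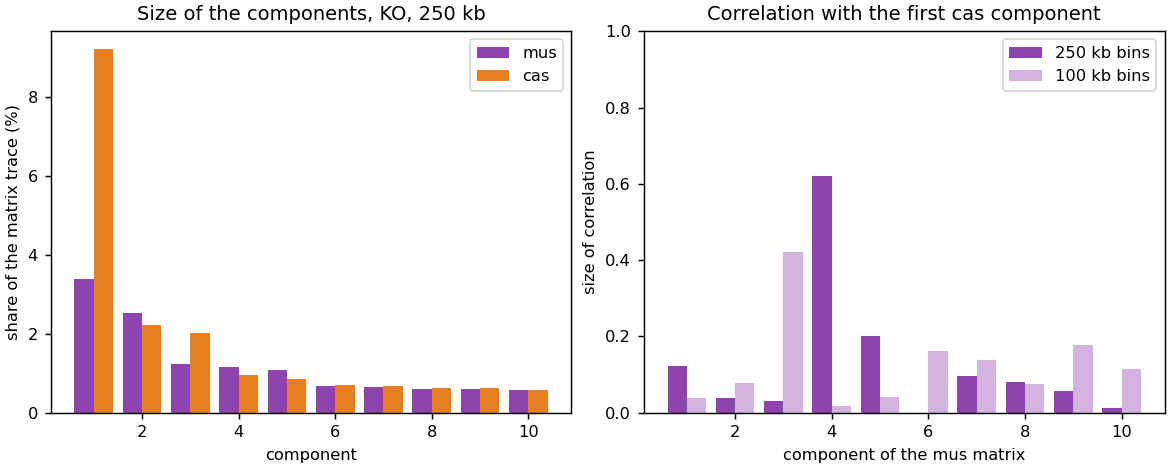
Left, share of the matrix trace in percent taken by each of 10 principal components on mus and cas at 250 kb in KO. Right, size of the correlation of each mus component with the first cas component at 250 kb and 100 kb, with peaks of 0.621 at the fourth and 0.422 at the third component.

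Each bin was then given a compartment score on each chromosome, the mean of its correlations to A bins less the mean to B bins, over bins at least 2 Mb away. Scores on mus were small, with a median size of 0.0123 against 0.247 on cas, but they followed the order of cas. In the lowest quintile of bins by cas score (median -0.387) the median mus score was -0.0158, and 14 of 118 bins were above 0. The medians of the next 3 quintiles were -0.00982, 0.000490 and 0.00791. In the highest quintile (median cas score 0.252) it was 0.0113, with 90 of 118 bins above 0. Over all bins, 46.0% were above 0 on mus and 33.4% on cas. The sign was the same on both chromosomes in 407 of 589 bins (69.1%, 95% exact binomial interval 65.2 to 72.8, which treats neighbouring bins as independent). The fitted slope of mus on cas was 4.04% and the Pearson correlation 0.555.

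After removal of the distance trend the order of the quintiles was kept, with mus medians of -0.00975, -0.00925, -0.00290, 0.00215 and 0.00813. The share of bins with the same sign was then 62.3% and the correlation 0.345. Averaged over 100 kb bins, 62.3% of bins had the same sign and the correlation was 0.374.

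**Figure D3:**
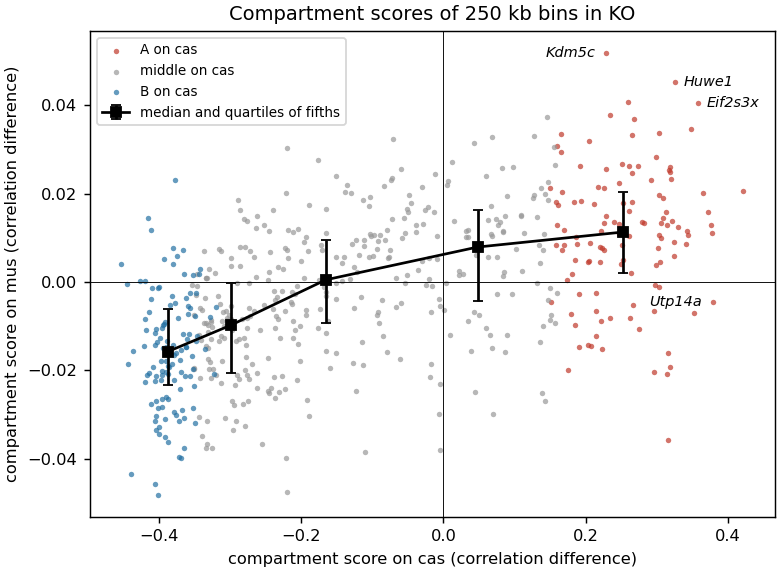
Compartment score of each 250 kb bin on mus against cas in KO, both as correlation differences, coloured by cas class. Black squares and bars are the median and quartiles of quintiles of bins by cas score, and the mus medians run from -0.0158 to 0.0113 while the cas medians run from -0.387 to 0.252.

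A bins were not uniform on mus. Of 118 A bins, 91 had a mus score above 0 and 27 did not, and of 118 B bins 103 were below 0 and 15 were not. After removal of the distance trend, 72 A bins and 28 B bins were above 0. The 27 A bins that were not above 0 on mus held a mean of 3.33 genes per bin, against 2.70 in the other 91. The median was 2 in both, and 18.5% of the 27 held no gene, against 11.0% of the 91. Of these 27 bins, 6 lay within 1 Mb of a gap in the data (22.2%), against 4 of the 91 (4.396%), and the part of the gaps in their scores was not tested.

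Several of the highest mus scores lay at bins of genes known to escape inactivation. The bin of Kdm5c (152250001 to 152500000) had a mus score of 0.0518, the highest of all 589 bins, and a cas score of 0.229. The bin of Huwe1, a ubiquitin ligase gene subject to inactivation, lies 0.5 Mb away and came second, with 0.0454 on mus and 0.326 on cas. The third was a bin without protein-coding genes at 12.25 Mb, with 0.0408. Eif2s3x, a translation initiation factor gene that escapes, had 0.0405 on mus and 0.358 on cas. The RNA helicase gene Ddx3x, an escape gene, had 0.0378 and 0.235. After removal of the distance trend the bins of Kdm5c, Huwe1, Eif2s3x and Ddx3x lay at the 98.5, 95.4, 100 and 93.4 percentiles of mus scores. At 100 kb they lay at the 99.5, 99.8, 84.0 and 99.3 percentiles. The Kdm5c and Huwe1 bins were thus above the 95 percentile in all 3 forms, and those of Eif2s3x and Ddx3x in 2 of them. The bin at 12.25 Mb (96.1 and 99.7) was also above it in all 3. So were the gene-free bins at 47.25 Mb (96.4 and 99.0) and 51.25 Mb (98.1 and 97.8), and the bin of Mtm1 at 71.25 Mb (99.8 and 100). The bin at 47.25 Mb had a cas score of -0.219, so it was on the B side on cas. Scores were also taken with partners on the same side of Dxz4 and the trend of each side removed. The bins of Kdm5c, Huwe1, Eif2s3x and Ddx3x then had 0.0148, 0.0119, 0.0507 and 0.0293 on mus, and that at 51.25 Mb had 0.0594.

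The 30 bins with the highest mus scores (5.09%) were then counted by list. They held 6 of 14 escape-gene bins and 4 of 13 silenced-gene bins, 2 of 40 testis and placenta bins, and no bin of the structural, fibroblast or neuronal lists. Of A bins 19 of 118 (16.1%) were among them. After removal of the distance trend the highest 30 held 3 escape-gene and 4 silenced-gene bins, 5 testis and placenta bins, 2 neuronal bins and 1 each of the structural and fibroblast lists. At 100 kb they held 4 escape-gene bins, 1 silenced-gene bin, 2 testis and placenta bins and 2 fibroblast bins. The bins of 1810030O07Rik, Usp9x and Ddx3x lie within 1 Mb of each other, as do those of Kdm5c, Huwe1 and Phf8, so these are not separate observations.

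The second question was which bins keep their whole cas-like profile on mus. For each bin, the profile correlation is the Pearson correlation of its mus row with its cas row over bins at least 2 Mb away, after removal of the distance trend. The median was 0.0781 (quartiles -0.0139 and 0.164), from -0.362 to 0.4005, and 418 of 589 bins (71.0%) were above 0. At 100 kb the correlations were smaller, with a median of 0.0179 over the 250 kb bins and no single 100 kb bin at 0.25 or more. The sign was the same at both bin sizes in 470 bins (79.8%).

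Bins were called cas-like at a profile correlation of 0.25 or more with a mean above 0 at 100 kb, and opposed at -0.25 or less with a mean below 0. By this rule 29 bins (4.92%) were cas-like and 5 (0.849%) were opposed. The bin just inside the upper threshold had 0.2504 and that just outside 0.2491. The cas-like bins were scattered. None lay in a run of 4 or more adjacent bins, and the longest runs were 3 pairs, at 23.5 Mb, 35.5 Mb and 132.25 Mb. Of the 29, 11 lay left of Dxz4 and 18 right, and 2 were A bins, 3 were B bins and 24 were between the classes on cas. Protein-coding genes were absent from 17 of them (58.6%), against 39.2% of all bins. Promoters of their genes held a median of 2 CpGs, against 7 over the promoters of all bins, 11 in A bins and 3 in B bins. Of the 29, 6 (20.7%) lay within 1 Mb of a gap, against 8.32% of all bins. The median neighbour correlation was 0.146 on mus and 0.186 on cas in the cas-like bins, against 0.126 and 0.178 over all bins. The part of the gaps and of signal strength in the calls was not tested.

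The bin of Dock11 (35750001 to 36000000) was the most cas-like, with a profile correlation of 0.4005 and a mean of 0.0747 at 100 kb. It lies 0.25 Mb from the gap that ends at 35.5 Mb. Next came a bin at 130.5 Mb without protein-coding genes, with 0.341, and the bin of Wdr44, which encodes a WD-repeat protein, with 0.340. A gene-free bin at 117.75 Mb had 0.331, and that of Btbd35f29, an isolated bin between gaps at 31 Mb, had 0.326. The 2 cas-like A bins were those of Eif2s3x and Zfx at 94 Mb, with 0.306, and of Atrx, a chromatin remodeller gene, with Fgf16 and Magt1 at 105.75 Mb, with 0.321.

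All 5 opposed bins lay right of Dxz4, in 2 places. With partners on the same side only, 14 bins passed the rule for opposed, of which 4 lay left of Dxz4, among them 68.25 Mb (-0.386) and the Fmr1 bin (-0.264). The bins at 133 and 133.25 Mb, without protein-coding genes, had profile correlations of -0.362 and -0.325. The bin at 133.75 Mb, with Tnmd, Tspan6, Srpx2 and Sytl4, had -0.341. Tnmd encodes the tendon protein tenomodulin and Tspan6 a tetraspanin. Its score was 0.0702 on cas and -0.0298 on mus. The bins of Htr2c, a serotonin receptor gene, and Il13ra2 at 147 and 147.25 Mb had -0.280 and -0.279. Both were A bins, with cas scores of 0.191 and 0.316 and mus scores of -0.0147 and -0.0357, so they stood on the A side on cas and on the B side on mus. Of the 5 opposed bins, 2 lay within 1 Mb of a gap. Left of the first group, the bins at 132.25 and 132.5 Mb were cas-like, with 0.273 and 0.307, and the bin at 132.75 Mb that separates them from the opposed bins had 0.241.

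Longer stretches were described by the sign of the profile correlation, a choice made after the values were seen. The longest stretch above 0 spanned 42 bins from 37.75 to 48.25 Mb, with a median of 0.166 and 39 protein-coding genes, among them the Rhox homeobox cluster. The next spanned 39 bins from 113.25 to 123 Mb (median 0.159, 14 genes) and 28 bins from 61 to 68 Mb (median 0.134, 15 genes). The median cas score in these stretches was -0.280, -0.327 and -0.387, so all were on the B side on cas. Their median mus scores were 0.00246, -0.0102 and -0.0272, so the first was just above 0 on mus. The longest stretches below 0 spanned 12 bins each, from 77.75 to 80.75 Mb (median -0.0991) and from 82.5 to 85.5 Mb (median -0.109), the second with the dystrophin gene Dmd. Both lie right of Dxz4 and were strongly B on cas, with median scores of -0.369 and -0.393, whereas on mus their medians were -0.00346 and -0.00124.

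**Figure D4:**
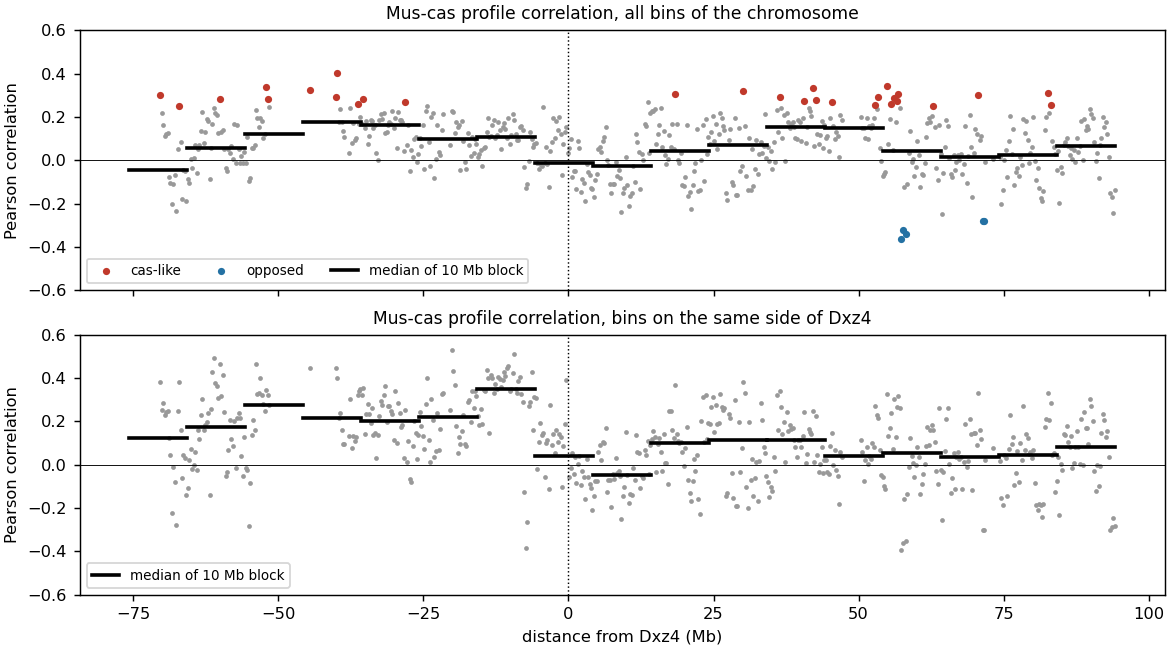
Profile correlation of mus with cas for each 250 kb bin in KO, against distance from Dxz4 in Mb, over all bins (top) and over bins on the same side of Dxz4 (bottom). Points are bins, red and blue mark the 29 cas-like and 5 opposed bins, and bars are medians of 10 Mb blocks, which left of Dxz4 reach 0.351 in the lower panel and right of it 0.116.

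The third question was where along the chromosome likeness to cas lay. Likeness of matrices and profiles was higher left of Dxz4 than right of it, at both bin sizes. Over all pairs at least 2 Mb apart, the trend-removed mus and cas matrices correlated at 0.0776. For pairs left of Dxz4 the value was 0.248, for pairs right of it 0.0424 and for pairs across it 0.0709. At 100 kb the order left above right was kept, with 0.0783 and 0.0144, and pairs across had 0.00260. The median profile correlation was 0.109 in the 231 bins left of Dxz4 and 0.0550 in the 357 bins right of it. The left part is the shorter, and the sides were not matched on the distance of their pairs. Similarity depended on distance, as given below, and the part of distance in this order was not tested.

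Restricted to partners on the same side, with the distance trend of each side removed, 429 of 588 bins (73.0%) were above 0. The median was 0.217 left, where 203 of 231 bins were above 0, and 0.0445 right, where 226 of 357 were. By 10 Mb blocks, the same-side median was highest from 60 to 70 Mb (0.351, 37 of 40 bins above 0), then from 20 to 30 Mb (0.276), 50 to 60 Mb (0.218) and 30 to 40 Mb (0.218). The lowest was from 80 to 90 Mb (-0.0456, 15 of 40 bins above 0) right of Dxz4. At 100 kb these 5 blocks had medians of 0.0926, 0.104, 0.0582, 0.0886 and -0.0214. For compartment scores the order of the sides depended on the form. With partners on both sides, the sign was equal on mus and cas in 66.7% of bins left of Dxz4 and 70.9% right of it, and in 60.2% and 63.9% at 100 kb. With the distance trend removed these shares were 68.0% and 58.5%. With partners on the same side they were 73.6% and 59.7% with the trend kept. With the trend of each side removed as well, they were 72.7% (168 of 231) and 45.7% (163 of 357), with correlations of 0.575 and 0.00544.

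The A/B contrast left of Dxz4 was set largely by the block from 60 to 70 Mb. Left of Dxz4 the contrast on mus was 0.0271, 8.11% of cas, against 0.0131 (3.99%) right of it. After removal of the distance trend these were 0.0206 (6.32%) and 0.00285 (0.899%), and at 100 kb 0.00266 and -0.000909. Right of Dxz4 little or no A/B contrast thus remained. Before removal of the trend, pairs of B bins had a mean correlation of 0.114 on mus, pairs of A bins 0.0539 and mixed pairs 0.0492, so that B bins were alike and A bins were hardly closer to each other than to B. Without the block from 60 to 70 Mb, which left 17 of the 38 B bins there, the contrast fell to 0.00481 on mus, 1.55% of cas, and the mean of B pairs to 0.0793. With the trend removed it fell to 0.00685 (2.20%). Without this block the left contrast was thus below the right one with the trend kept and above it with the trend removed. The similarity of the left matrices without this block was 0.197, so likeness to cas there was not limited to it. Right of Dxz4, without the block from 80 to 90 Mb, similarity was 0.0620 and the contrast 0.0126, or 0.00397 with the trend removed.

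Similarity also depended on distance. The trend-removed matrices correlated at 0.238 for pairs 2 to 5 Mb apart and at 0.191 for 5 to 10 Mb, but at 0.0316 for 10 to 20 Mb and 0.0134 for 20 to 50 Mb. Beyond 50 Mb the value was 0.103. At 100 kb these were 0.0952, 0.0782, -0.00762, -0.00857 and 0.0217. The A/B contrast on mus was 0.0143, 0.0173, -0.00745, 0.00739 and 0.0115 over the same classes, while on cas it fell from 0.378 to 0.270.

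Averages over pairs of 10 Mb blocks located the largest differences between the chromosomes. Among 136 block pairs, the blocks from 60 to 70 Mb and from 80 to 90 Mb, which lie on either side of Dxz4, had the highest trend-removed mean on cas (0.157) and the lowest on mus (-0.0499). At 100 kb they again ranked 1 on cas and 136 on mus. Their mean correlation before removal of the trend was 0.207 on cas and -0.00897 on mus. Both blocks are gene-poor, with 26 and 19 protein-coding genes, and had median cas scores of -0.351 and -0.393. On mus other pairs were lower before removal of the trend, with the lowest, 40 to 50 Mb with 80 to 90 Mb, at -0.0310. These B regions were thus the most alike block pair on cas, and the least alike on mus once distance was taken into account.

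The highest block pair on mus was 20 to 30 Mb with 60 to 70 Mb, both left of Dxz4, with 0.0618 on mus and 0.0565 on cas. It ranked 1 on mus and 11 on cas, and 1 on mus at 100 kb. Next on mus came 30 to 40 Mb with 110 to 120 Mb (0.05003 on mus, 0.0349 on cas) and 40 to 50 Mb with 120 to 130 Mb (0.0492 and 0.0532). These pairs lie across Dxz4. Within the left part, block means on mus and cas correlated at 0.590 over 28 block pairs (0.426 at 100 kb). Within the right part the correlation was 0.000755 over 36 (0.102 at 100 kb), and across Dxz4 -0.0326 over 72 (-0.195 at 100 kb).

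Local boundaries were compared at 100 kb. The boundary score of a bin sets pairs inside the 1 Mb to its left or right against pairs that span it, as a difference of mean correlations, and it is not matched on distance. It had an SD of 0.00667 on mus and 0.0220 on cas over 1360 bins. Mus and cas scores correlated at 0.183, with 0.268 left of Dxz4 and 0.0996 right of it. Of the 136 strongest cas boundaries, 25 (18.4%) were also among the 136 strongest on mus, which are 10% of all 1360 bins. With windows of 500 kb and 2 Mb this share was 20% and 10.9%. With the 1 Mb window it was 19.2% left of Dxz4 and 11.9% right of it, so right of Dxz4 it was near the 10% of all bins. Left of Dxz4, the 52 strongest on cas lay at a median percentile of 72.3 on mus, and the 84 strongest right of it at 49.8. With windows of 500 kb and 2 Mb the left and right correlations were 0.223 and 0.0686, and 0.197 and 0.107. The order left above right was therefore kept in each window.

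With the 1 Mb window, Dxz4 differed most between the copies among the structural loci. The bin of 4933407K13Rik (75725458 to 75764699) lay at the 97.9 percentile on mus and the 40.7 percentile on cas. With a 2 Mb window these were 98.8 and 65.4, but with 500 kb 26.9 and 45.3, so the mus boundary at Dxz4 was a broad one. Its compartment score was -0.00850 on mus and 0.150045 on cas, and its profile correlation 0.0313. After removal of the distance trend its mus score was 0.00905, so its side on mus depended on the form. The noncoding RNA locus Firre (50563120 to 50635321), known to contact Dxz4 on the inactive X, lay at the 76.8 percentile on mus and 85.1 on cas. The bin shared by Xist, its antisense partner Tsix and Jpx had a mus score of 0.020002 and a cas score of 0.144, and a boundary percentile of 11.3 on mus and 14.9 on cas, which with a 2 Mb window was 7.42 and 73.7. The bin of Ftx, a noncoding RNA gene beside them, had scores of 0.0172 and 0.0677. Firre had 0.0228 and 0.00706. By these scores the 3 bins outside Dxz4 were on the A side on both copies, that of Firre barely so on cas. The Firre bin had 0.0247 on mus and 0.0209 on cas after removal of the distance trend. With partners on the same side it had -0.0290 and -0.0166, so its side depended on the form. Profile correlations were 0.160 for Firre, 0.146 for Ftx and 0.0948 for Xist. The Ftx bin had -0.0179 at 100 kb.

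Escape and silenced genes had like profile correlations, both with medians above that of all bins. Of the escape bins, 3 are also those of Xist, Ftx and Firre. Of 14 escape-gene bins, 12 had a profile correlation above 0, with a median of 0.146, against 71.0% and 0.0781 of all bins. Of 13 silenced-gene bins, 11 were above 0, with a median of 0.141. The 100 kb medians were 0.0334 and 0.0336 against 0.0179. Among the escape genes, Eif2s3x (0.306) and 1810030O07Rik (0.223) had the highest values. The ubiquitin ligase gene Mid1 (-0.139) and Utp14a (-0.0514), a ribosome biogenesis gene, had the lowest, though the Utp14a bin had 0.0396 at 100 kb. Among silenced genes, Atrx (0.321) and Huwe1 (0.206) were highest. Fmr1 (-0.112), the gene of an RNA-binding protein, and Rlim (-0.101), the gene of a ubiquitin ligase that acts on Xist control, were lowest, and the Rlim bin had 0.0336 at 100 kb. The bin of Fmr1 had a cas score of 0.143 and a mus score of -0.0270.

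The median score of the escape list on mus was 0.0214, against 0.0133 for silenced genes and -0.00242 for all bins. On cas the order of the lists was the other way, with 0.186 and 0.282 against -0.165. Sign was the same on both copies in 13 of 14 escape-gene bins and in 9 of 13 silenced-gene bins, against 69.1% of all bins. After removal of the distance trend these counts were 11 and 11, so the gap between the lists was not kept. Of the silenced bins 9 were A bins on cas, and of the escape bins 7.

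**Figure D5:**
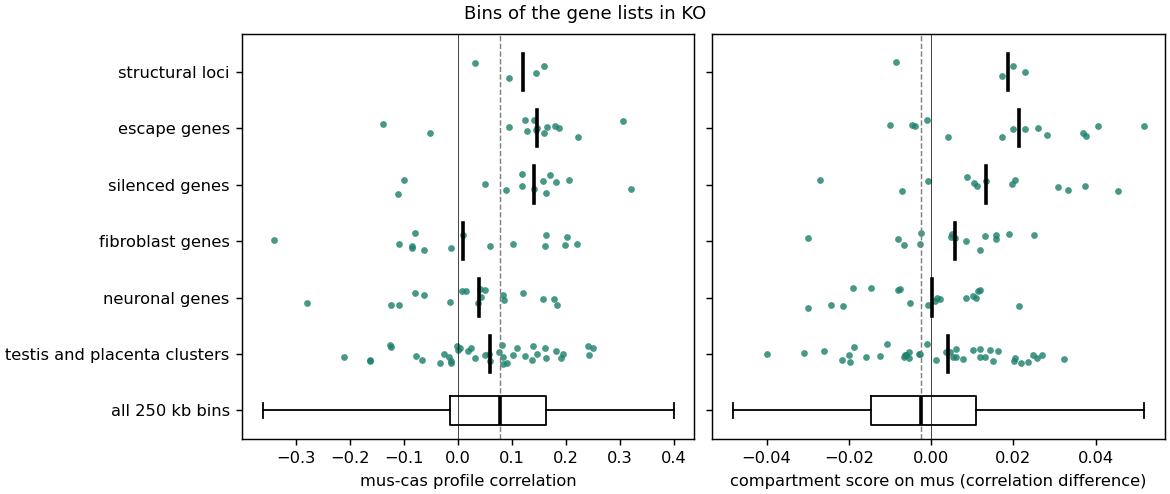
Mus-cas profile correlation (left) and compartment score on mus (right, a correlation difference) of the bins of 6 gene lists in KO, 1 point per bin, with the list median as a bar. The box shows quartiles and range of all 589 bins and the dashed line their median, 0.0781 left and -0.00242 right, and escape and silenced genes have medians of 0.146 and 0.141 left and 0.0214 and 0.0133 right.

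Genes known for expression in fibroblasts had a median near 0. Of 15 bins 8 were above 0, with a median profile correlation of 0.00903, against 71.0% and 0.0781 of all bins. Of the 15, 12 were A bins, and the median cas score of the list was 0.247. The median profile correlation of all 118 A bins was 0.0555, itself below that of all bins. Gpc3, a glypican gene, had 0.220 and Flna, the gene of the actin crosslinker filamin A, had 0.202. Srpx2, in an opposed bin, had -0.341 and Plp2, which encodes a small membrane protein, -0.109. Restricted to the same side, the median was 0.0478, and at 100 kb it was -7.07e-06. Of 18 bins of neuronal genes 12 were above 0, a share near that of all bins. The median was 0.0389, and -0.000674 at 100 kb. The glutamate receptor gene Gria3 (0.184) and the synaptic adhesion gene Il1rapl2 (0.178) were highest, and Htr2c (-0.280) and the GABA receptor subunit gene Gabre (-0.125) lowest.

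The testis and placenta clusters named 109 genes, of which 29 had no bin with data, and the others filled 40 bins. Of these 27 were above 0, with a median of 0.0588, against 71.0% and 0.0781 of all bins. The share above 0 was thus near that of all bins. Of the 40 bins 1 was cas-like, against 4.92% of all bins. The highest were the bins of Ssxb6 and other Ssxb genes (0.2505) and of Rhox11 (0.242), and the lowest those of Samt3 (-0.212) and Mageb4 (-0.163). Some of these genes are near-identical copies in tandem, where reads are hard to place and to assign to an allele.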

How the data were processed

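Per the file headers, the deposited values are HOMER-format matrices in which each entry is a score from -1 to 1 for how alike the contacts of 2 bins are, computed from reads split by allele and combined over replicates by the authors. The tools Juicer, HOMER, Bowtie2 and cutadapt and the build mm10 appear in the submitters' processing notes, without their roles. Per the labels' protocols, chromatin was fixed with 2% formaldehyde and cut with HindIII. How contacts were normalized, how reads were given to an allele and the depth: not given in the sources used here. The series' design text names another assay than the sample labels and file headers, which describe Hi-C.

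Bins empty in either KO matrix were left out. Genes were placed by midpoint (RefSeq, GRCm38.p6). The distance trend is the mean of each matrix over 1 Mb classes of distance. The members, gene lists and rules were chosen with earlier results of these data known. Genes named are those at structural loci, the 2 highest and 2 lowest bins of the other lists by profile correlation, and the 5 highest and 5 lowest bins of all. Other genes were named after their values were seen. No significance test was made. Python 3.11.15, numpy and pandas were used.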

Additional observations from a re-analysis of the deposited data

How the results depend on the processing

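No paired analysis was possible because the replicates were combined into 1 matrix for each allele, and for the same reason no replicate could be left out. Values of unlike settings below were taken as moved when they differed by over 1.5 times, or, for the share of bins with the same sign, lay outside its interval. Of the recomputed values of the main comparisons, 50 did not move and 29 did, and none changed sign. Of the list medians, 4 did not move, 6 did and 2 changed sign. With 100 kb bins, correlations shrank throughout: the A/B contrast was 0.0866 on cas and 0.00147 on mus, the gene-rich against gene-poor contrast 0.0275 and 0.00214, matrix similarity 0.0156, the share with the same sign 59.0%, and 0 bins were cas-like and 0 opposed. With the distance trend removed from scores and kept in profiles, the A/B contrast on mus was 0.00746, the share with the same sign 62.3%, and 53 bins were cas-like and 2 opposed. With partners on the same side only, 124 bins were cas-like, 14 opposed (4 left and 10 right of Dxz4) and 65.1% had the same sign. Left of Dxz4 only, the A/B contrast on mus was 0.0271, the gene-rich against gene-poor contrast 0.00714, similarity 0.248, 89 bins were cas-like and 73.6% had the same sign. Right of it, similarity was 0.0424 and the share 59.7%. Of the 2 settings added after seeing the data, left of Dxz4 without 60 to 70 Mb gave an A/B contrast on mus of 0.00481 and a similarity of 0.197, and right of Dxz4 without 80 to 90 Mb moved neither value. A minimum distance of 5 Mb gave a share of 64.5%. At thresholds of 0.15 and 0.35, 176 and 1 bins were cas-like and 29 and 1 opposed, so the number of calls follows the threshold. The list medians of profile correlation turned sign at 100 kb for fibroblast genes (-7.07e-06) and neuronal genes (-0.000674). Unknown depth limits every comparison of sizes between the chromosomes, since noise lowers correlations and the neighbour correlation was lower on mus.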
